A study of Arabidopsis thaliana with 141 samples.

Results

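The 7 genes described here encode the cytosolic chaperones HSP101 (AT1G74310), HSP70 (AT3G12580), HSP90.1 (AT5G52640) and HSP90.2 (AT5G56030) of Arabidopsis thaliana, the co-chaperones ROF2 (AT5G48570) and BAG6 (AT2G46240), and the transcriptional coactivator MBF1c (AT3G24500). They were taken by locus identifier from every count table and are 7 of the 32005 loci listed in all tables (38009 in any). RNA was sequenced from 141 libraries in 49 groups. All 7 genes passed the filter on low counts in each of the 6 sets of libraries that were fitted separately.

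Chaperones bind unfolded proteins and help them to fold, to dissolve from aggregates or to be passed on for degradation. In plants, genes for the cytosolic chaperones are strongly induced by heat through heat shock factors, which bind repeated GAA and TTC units upstream of their targets, and many are also induced by oxidants. The same chaperones serve unstressed cells, where HSP90 with its co-chaperones keeps kinases and immune receptors in a foldable state.

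In the time course, 7-day-old wild-type (WT) seedlings received 100 nM flg22, a peptide of bacterial flagellin, for 5, 10, 15, 30 or 60 min, and the only control was water at 0 min (2 libraries per time). In sets B1 to B4, WT, impk36 and impk4 seedlings of the same age had 15 min of 10 uM of the compound 3MBiP and then a stimulus (3 libraries per group). The stimuli were 100 nM pep3, a plant elicitor peptide, 20 uM abscisic acid or 50 uM methyl jasmonate in B1, 2 nM flg22 or wounding with forceps in B2, UVB (40 W in the labels) in B3 and 10 mM H2O2 in B4. Groups of the same set and line with 3MBiP and no stimulus, called unstimulated below, were the reference for each stimulus response. Their time of harvest is not given in the labels. One B1 group of WT had 0.1% DMSO in place of 3MBiP and no stimulus. The protocol gives 1 h of incubation for every stimulus, but 3 flg22 groups carry 30 min in their titles. In the adult set, shoots of 4-week-old impk4 plants were taken untreated at 0 h, or 3, 6, 12 and 24 h after a spray of 100 uM 3MBiP or of 1% DMSO (mock), beside shoots of untreated mpk4 plants whose time of harvest is not given (3 libraries per group). Each seedling RNA pooled 8 seedlings. How the lines impk36 and impk4 were made is not stated in the labels, and in B3 and B4 neither line has an unstimulated group.

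Library totals over genes lay between 13.9 and 40.4 M counts, and alignments that were not unique made up 5.38 to 42.4%, the highest in replicate 3 of impk36 after pep3. MPK6 stood at 277 to 534 CPM (counts scaled to the normalised library size) in all impk36 libraries against 55.3 to 133 in WT. MPK4 stood at 1152 to 1924 CPM in impk4 libraries and at 20.8 to 24.9 in mpk4. Of 7 root markers, 7 averaged above 1 CPM in each seedling set, with summed levels of 1551 to 4307 CPM, and 3 did so in adult shoots (42.9 to 463 CPM). Their part in the results was not tested. In bulk RNA, fewer cells of a type and less RNA per cell cannot be told apart.

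The genes lie on 4 chromosomes in the TAIR10.1 assembly. HSP101, the disaggregase of the ClpB type, lies at chr1:27936508-27940369 (minus strand, 6 exons). HSP70, a cytosolic heat-inducible Hsp70, lies at chr3:3991117-3993886 (minus strand, 2 exons). The heat-inducible HSP90.1 (chr5:21352557-21355147, plus strand, 4 exons) and the constitutive HSP90.2 (chr5:22686473-22689671, plus strand, 3 exons) are paralogues. Of the 50-base windows of the HSP90.2 exons, 18.9% recur elsewhere in the genome, as do 24.8% for the neighbouring HSP90.3, so its counts are less certain than those of the other members (0 to 0.196%). ROF2, an FK506-binding prolyl isomerase that associates with HSP90.1, lies at chr5:19690461-19693845 (minus strand, 13 exons). BAG6, a calmodulin-binding BAG protein that contacts Hsp70, lies at chr2:18986133-18990220 (plus strand, 3 exons). MBF1c, known as a regulator of heat tolerance, lies at chr3:8918267-8919683 (plus strand, 2 exons).

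Heat shock elements near the genes are shown because these units are the known binding sites of heat shock factors. The sites below lie within 500 bases before the annotated start codon, 5′ to 3′ on the coding strand, with the GAA and TTC units and the bases between them in capitals.
HSP70, 3 units, 177 bases before the start codon in an annotated exon, chr3:3993846-3993874, minus strand: ttactcgtGAACGTTCTCGAAagctcttt
HSP90.1, 3 units, 295 bases before the start codon and before the annotated gene start, chr5:21352254-21352282, plus strand: aacgaaaaGAACTTTCTGGAAttcgtttg
HSP90.1, 2 units, chr5:21352194-21352223, plus strand: actgaaccggcGAAATTTCtttgccagacc
BAG6, 2 units, before the annotated gene start, chr2:18986088-18986117, plus strand: agaaacgaagaGAAAATTCcagatttttca
MBF1c, 2 units in an annotated exon, chr3:8918357-8918386, plus strand: gaataattcggTTCTGGAAgtaagggatcc
MBF1c, 2 units in an annotated exon, chr3:8918569-8918598, plus strand: atcatctctaaGAACGTTCcagagacgaaa
HSP101, 2 units in an annotated exon, chr1:27940322-27940351, minus strand: ataaaataagcGAAAATTCcacgtgacatc
Elements of 3 alternating units, each 2 bases apart, stood upstream of 2 of the 7 members and of 1.199% of 27443 genes. Elements of 2 units (a GAA and a TTC in either order with 2 bases between them, both strands, 3-unit elements included) stood upstream of 5 of 7 members and of 33.9% of genes, and the window of HSP90.2 or ROF2 held none. In the 250 bases before the annotated gene start, 0 of 7 members held the 3-unit element (0.386% of genes) and BAG6 alone of the 7 held the 2-unit element (16.2% of genes). Annotated exons begin 197 to 507 bases before the start codon in 4 of the 5 genes shown, all but HSP90.1, and the 500-base window was chosen after this was seen. A match is a description of letters and not of binding.

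Levels between genes were set side by side only as CPM per kilobase of annotated exon. The lengths are from RefSeq and were not compared with the annotation used for counting. The record of HSP90.1 begins 0 bases before its start codon, against 197 to 507 in HSP101, HSP70, BAG6 and MBF1c. Its place in the order is thus less certain. In unstimulated WT seedlings of B4, HSP90.2 stood at 123 CPM per kb, apart from all other members. Behind it came HSP90.1 at 6.91, HSP70 at 5.86, ROF2 at 5.42, MBF1c at 4.49, HSP101 at 4.03 and BAG6 at 3.62, and each neighbouring pair among these 6 overlapped over its libraries. After H2O2 the order in WT was HSP70 at 241 CPM per kb, HSP90.1 at 240.1, HSP90.2 at 200.4, HSP101 at 162, MBF1c at 101, BAG6 at 79.0 and ROF2 at 61.8, and HSP70 and HSP90.1 were the sole neighbours to overlap. Over the 49 groups, the mean CPM (not per length) was highest in WT after H2O2 for 6 members and in unstimulated impk36 seedlings of B2 for HSP90.2. The highest group mean was 247 times the lowest for HSP70, 146 times for HSP90.1, 43.1 to 76.5 times for HSP101, ROF2, BAG6 and MBF1c, and 5.19 times for HSP90.2. For every member the highest group was of seedlings and the lowest of adult impk4 shoots without 3MBiP. These ratios cross age, tissue and sets scaled separately, so they do not measure a response.

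H2O2 raised all 7 members in WT, 6 of them by 11.4-fold to 41.2-fold, where 39.9% of 21543 genes passed the threshold (Benjamini-Hochberg adjusted p under 0.05 in edgeR's quasi-likelihood test). Here and below, the share of genes that passed counts both directions, with 4536 genes higher and 4065 lower after H2O2. HSP101 stood at 12.4, 15.9 and 12.3 CPM in the 3 unstimulated libraries and at 512, 607 and 518 CPM after H2O2. HSP70 went from 15.1, 17.3 and 11.9 CPM to 585, 668 and 566 CPM. HSP90.1 went from 16.9, 15.7 and 11.0 CPM to 484, 555 and 476 CPM. Every treated library of these 3 chaperones was far above every untreated one. The log2 fold changes were 5.33 ± 0.10 for HSP101 (40.3-fold, adjusted p = 4.2e-15), 5.36 ± 0.12 for HSP70 (41.2-fold) and 5.12 ± 0.14 for HSP90.1 (34.9-fold), where ± is the standard error and n = 3 per group.

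The log2 changes of the BAG6, MBF1c and ROF2 transcripts were smaller than those of the 3 chaperones. BAG6 went from 13.8, 12.7 and 14.5 CPM to 291, 334 and 272 CPM (4.45 ± 0.10 on the log2 scale). MBF1c went from 4.82, 6.82 and 4.61 CPM to 122, 131 and 113 CPM (4.50 ± 0.12), and ROF2 from 13.0, 12.0 and 11.0 CPM to 138, 145 and 127 CPM (3.51 ± 0.07). The constitutive HSP90.2 went from 384, 378 and 295 CPM to 567, 597 and 565 CPM, a change of 0.71 ± 0.08 (1.64-fold). Its libraries too did not overlap between the groups, although its fold was the smallest of the 7.

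**Figure D1:**
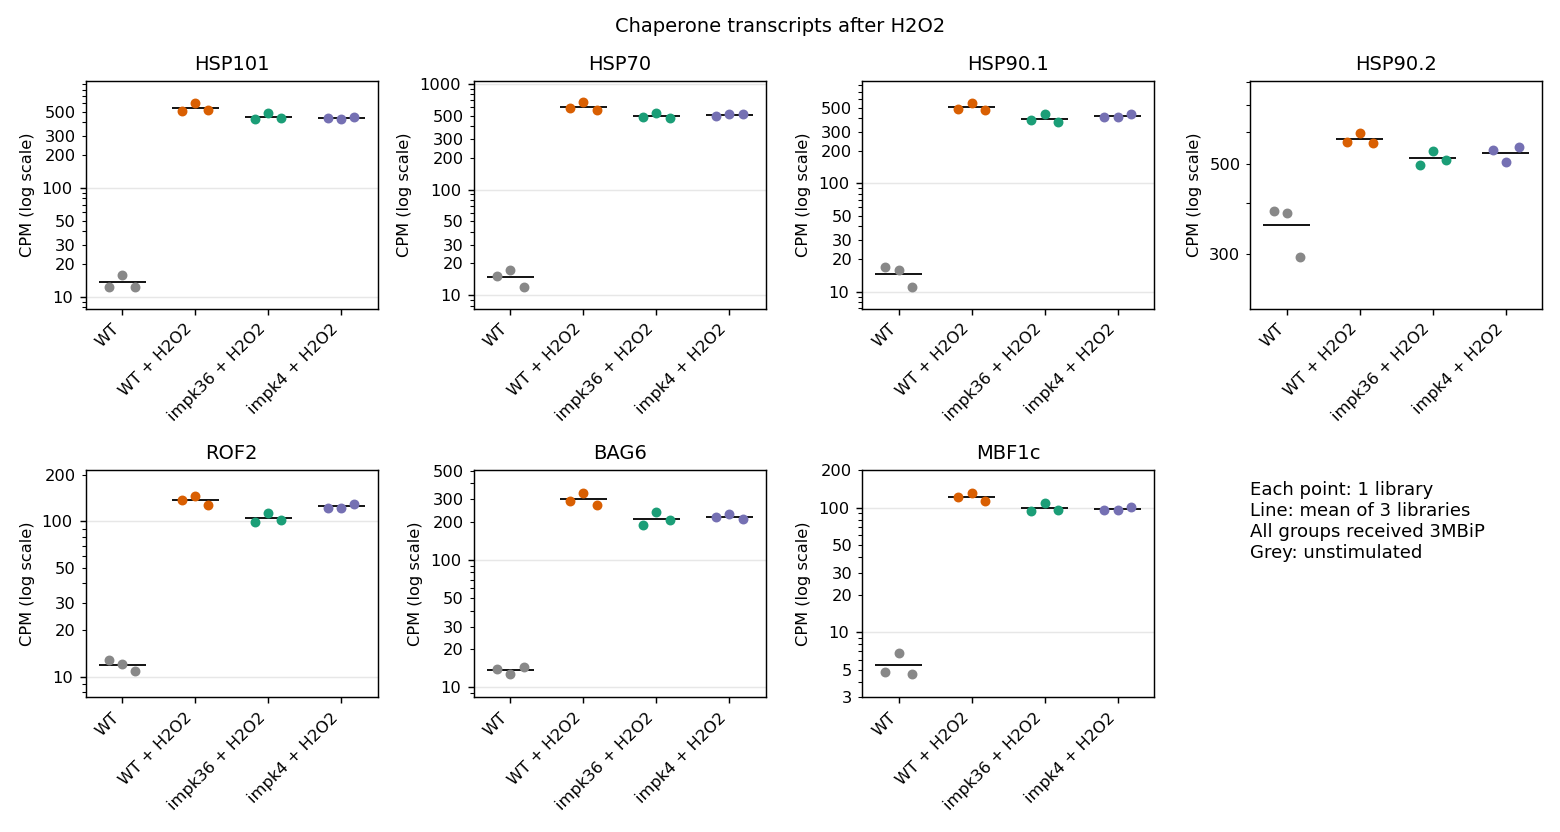
Level of each gene in CPM (logarithmic axis) in the 12 libraries of set B4, with 1 point per library and a line at the mean of 3. In WT the unstimulated libraries of HSP101 lie between 12.3 and 15.9 CPM and the H2O2 libraries between 512 and 607 CPM, while HSP90.2 shows the smallest step.

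Related genes were read from 5 lists. All 14 small heat shock protein genes rose with H2O2 (median log2 fold change 6.95, against -0.02 over all genes tested), led by HSP17.6II (10.17 ± 0.16) and AT1G53540 (9.44 ± 0.14). Of the 17 heat shock factor genes tested 12 rose and 1 fell (median 0.68), among them HSFA2 (7.00 ± 0.17), a heat-induced activator, and the class B factors HSFB2A (3.13 ± 0.09) and HSFB1 (1.80 ± 0.06). Of 13 further co-chaperones 8 rose and 1 fell (median 0.44), with HOP3 (4.01 ± 0.08), which bridges Hsp70 and Hsp90, FES1A (3.59 ± 0.09) and SGT1A (2.38 ± 0.06). Among 20 paralogues of the members 9 rose and 2 fell (median 0.20), with HSP70-5 (5.74 ± 0.11) and HSP70T-2 (4.67 ± 0.11) far above the median. Genes of folding in the endoplasmic reticulum had 5 of 16 higher and 3 lower (median -0.08), with the J-protein ERDJ3A at 4.03 ± 0.11.

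Both kinase lines also held high levels after H2O2, with the mean of each member somewhat below WT. BAG6 stood at 291, 334 and 272 CPM in WT, at 186, 237 and 207 CPM in impk36 and at 217, 229 and 209.8 CPM in impk4. Every impk36 library lay below every WT library for all 7 members. Every impk4 library did so for 6 of 7, all but ROF2. The share of all genes with such a gap was not computed. In impk36, 3 of 7 members were lower than WT, BAG6 (-0.51 ± 0.09), ROF2 (-0.39 ± 0.06) and HSP101 (-0.28 ± 0.08), where 11% of genes passed the threshold. In impk4, BAG6 alone was lower (-0.45 ± 0.09, adjusted p = 0.023), where 1.19% passed, and it missed the threshold without replicate 1 or 2 of WT or replicate 1 or 3 of impk4 (adjusted p from 0.061 to 0.13). The call on HSP101 in impk36 was lost without the filter on low counts (adjusted p = 0.055), and without replicate 2 of WT or replicate 1 or 3 of impk36, and MBF1c passed without replicate 3 of WT (-0.34) or replicate 2 of impk36 (-0.36). Of the small heat shock protein genes 8 of 14 were lower in impk36 (median -0.28) and 1 in impk4 (median -0.13). Counts of genes higher and lower in impk36 were 0 and 3 of 17 heat shock factor genes (median -0.06), 0 and 3 of 13 co-chaperones (median -0.15), 0 and 1 of 20 paralogues (median -0.03) and 8 and 2 of 16 endoplasmic reticulum genes (median 0.17). In impk4 they were 0 and 1 of the factors (HSFA4A, -0.51 ± 0.11), and no gene of the other 3 lists passed. These comparisons are of levels after H2O2, since an unstimulated group of either line was not part of the set.

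**Figure D2:**
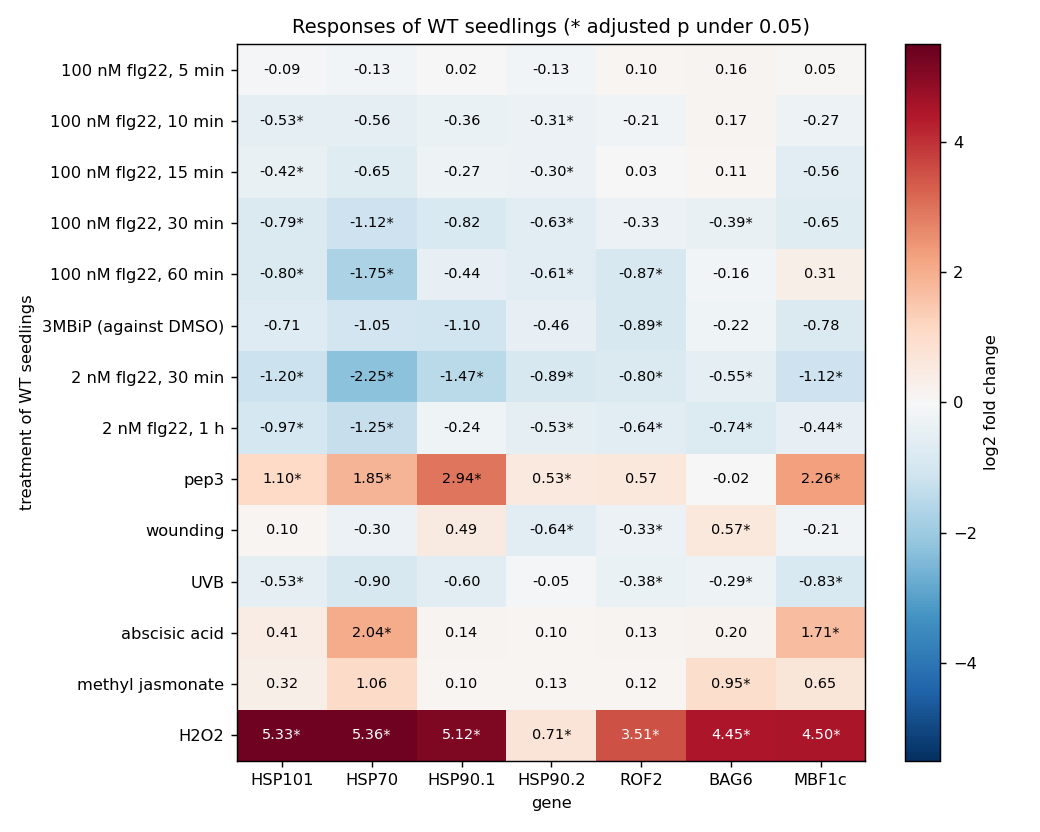
Log2 fold change of each gene (columns) in WT seedlings for 14 comparisons (rows), by colour and number, with an asterisk where the adjusted p is under 0.05. The H2O2 row is high in all columns, the flg22 rows are mostly low, and pep3 is high for 5 genes.

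Pep3 raised 5 of the 7 members in WT, where 62.5% of genes passed the threshold. HSP90.1 stood at 17.3, 14.3 and 15.0 CPM unstimulated and at 55.2, 75.9 and 223 CPM after pep3 (2.94 ± 0.49, adjusted p = 7.7e-06). MBF1c went from 9.66, 7.73 and 8.53 CPM to 23.7, 33.1 and 65.3 CPM (2.26 ± 0.35). HSP70 went from 31.1, 17.3 and 26.3 CPM to 39.5, 60.6 and 166 CPM (1.85 ± 0.50). The groups did not overlap for these genes, but replicate 3 after pep3 was well above the others. For HSP90.1, HSP70, HSP101 and BAG6, replicate 3 after pep3 was the highest library of its group in impk36 and in impk4 as well. At HSP90.1 it stood at 41.0 CPM in impk36 and 222 CPM in impk4. Whether same-numbered libraries of the lines share this by origin was not tested. HSP101 (2.14-fold, adjusted p = 0.0031) and HSP90.2 (0.53 ± 0.18) rose too, while ROF2 (0.57 ± 0.26, adjusted p = 0.058) and BAG6 (-0.02 ± 0.14) did not pass. These rises are against WT with 3MBiP. In WT with DMSO, HSP101 stood at 20.5 to 28.3 CPM, HSP90.2 at 442 to 549 and HSP70 at 33.5 to 69.8. These ranges overlapped those after pep3, while the DMSO libraries of HSP90.1 and MBF1c lay below those after pep3. The DMSO and pep3 groups were not compared by a test. Without replicate 3 of WT after pep3, 3 members were called. These were HSP90.1, MBF1c and, in the other direction, BAG6 (-0.35, adjusted p = 0.012), while HSP101 fell to 0.48, HSP70 to 1.00 and HSP90.2 to 0.18 and missed the threshold. HSP90.2 was also lost without replicate 2 of unstimulated WT (adjusted p = 0.06), and ROF2 was called without replicate 1 or 2 of WT after pep3. In the fit of the compared groups alone, HSP101 (adjusted p = 0.088), HSP70 (0.075) and HSP90.2 (0.14) missed the threshold.

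After pep3, 6 members passed the threshold as higher in impk4 and none in impk36. In impk4, HSP90.1 stood at 11.8, 13.7 and 11.9 CPM and after pep3 at 119, 36.2 and 222 CPM, and 6 of 7 members rose (58% of genes passed), all but BAG6, while ROF2 was lost without replicate 3 of impk4 after pep3 (adjusted p = 0.065) and HSP101 in the fit of the compared groups alone (0.064). Replicate 2 of impk4 after pep3 was the lowest of its group for all 7 members. In impk36 HSP90.1 stood at 10.4, 12.0 and 12.1 CPM and after pep3 at 18.6, 11.1 and 41.0 CPM, with overlapping groups. HSP70 in impk36 went from 12.6, 20.9 and 18.7 CPM to 10.6, 5.57 and 27.7 CPM, also overlapping. The sole member past the threshold in impk36 was BAG6, which fell (-0.54 ± 0.14), where 55.9% of genes passed, and HSP90.1 (1.35) passed too without replicate 2 of impk36 after pep3. HSP90.1 also passed as higher in DESeq2 (1.03, adjusted p = 0.043), and MBF1c in the fit of the compared groups alone (0.59, adjusted p = 0.0076). After pep3, the libraries of HSP70, HSP90.1, HSP90.2 and MBF1c in impk36 all lay below those in WT, while those of HSP101, ROF2 and BAG6 overlapped. The share of all genes with such a gap was not computed.

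The response in impk36 minus that in WT was tested directly. It was -1.66 ± 0.54 for MBF1c (adjusted p = 0.032), the 1 member past the threshold, where 16.1% of genes passed. It was -2.12 ± 0.76 for HSP70 (adjusted p = 0.058), -1.92 ± 0.72 for HSP90.1 (0.068), -0.70 ± 0.26 for HSP90.2, -1.06 ± 0.45 for HSP101, -0.52 ± 0.20 for BAG6 and -0.11 ± 0.38 for ROF2. The count rested on single libraries. It was 4 without replicate 3 of impk36 after pep3, the library with 42.4% of alignments not unique, and 6 and 5 without replicates 1 and 2 of WT after pep3. It was 0 without replicate 3 of WT after pep3, replicate 2 or 3 of unstimulated WT, replicate 2 of unstimulated impk36 or replicate 2 of impk36 after pep3, and also 0 in the fit of the compared groups alone (MBF1c at -1.66, adjusted p = 0.078). For impk4 minus WT the differences ran from 0.02 ± 0.19 (BAG6) to 0.55 ± 0.71 (HSP70), and 0 of 7 passed, where 0.702% of genes did.

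**Figure D3:**
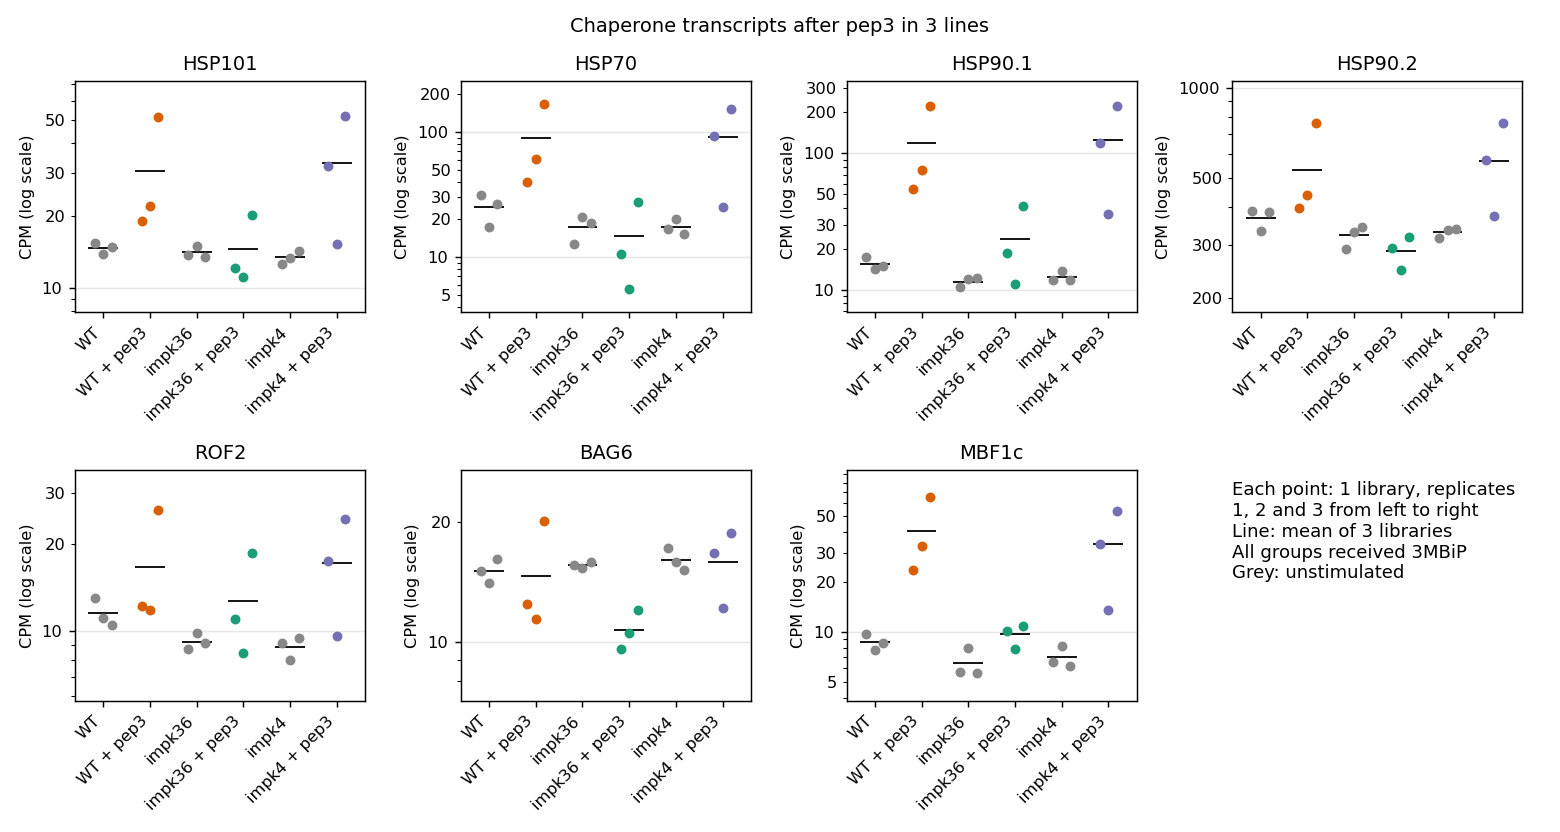
Level of each gene in CPM (logarithmic axis) in 18 libraries of set B1, unstimulated (grey) and after pep3, by line, with replicates 1 to 3 from left to right and a line at the mean. HSP90.1 reaches 223 CPM in WT and 222 CPM in impk4 after pep3 but 41.0 CPM in impk36, and single libraries spread widely after pep3.

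The other lists were mixed after pep3 in WT. Of 13 co-chaperones 9 rose and 0 fell (median 0.55, against -0.01 over all genes), led by SGT1A (2.88 ± 0.11), a partner of HSP90 in immune receptor function, CHIP (1.09 ± 0.07), a ubiquitin ligase, and the J-protein J2 (1.19 ± 0.08). Heat shock factor genes had 11 of 18 higher and 4 lower (median 0.60), with HSFA4A at 3.02 ± 0.10, and endoplasmic reticulum genes 10 of 16 higher and 1 lower (median 0.41), with calreticulin CRT3 at 2.27 ± 0.07 and the stress factor BZIP60 at 2.22 ± 0.07. Small heat shock protein genes had 4 of 11 higher (median 0.98) and paralogues 7 of 20 higher and 6 lower (median -0.11), with HSC70-2 at 2.43 ± 0.25.

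In the flg22 time course HSP101, HSP70 and HSP90.2 were lower at 30 and 60 min, while HSP90.1 passed the threshold at no time in the main fit. HSP70 stood at 85.5 and 147 CPM at 0 min, at 52.6 and 53.9 CPM at 30 min and at 41.4 and 27.4 CPM at 60 min. HSP101 stood at 14.2 and 18.9 CPM at 0 min, at 11.8 and 11.0 CPM at 10 min and at 10.8 and 8.13 CPM at 60 min. HSP90.2 went from 212 and 229 CPM to 140.1 and 145 CPM at 30 min. Both libraries at these later times lay below both at 0 min for the 3 genes, although the 0 min libraries of HSP70 differed between themselves.

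At 5 min 0 of 7 members passed, where 0.963% of genes did (2439 of 20871 genes at an unadjusted p under 0.05), and DESeq2 also called none. HSP101 (-0.53 ± 0.14) and HSP90.2 (-0.31 ± 0.06) were lower at 10 min and at 15 min, 2 of 7 each time against 9.77% and 21.8% of genes. At 30 min HSP70 (-1.12 ± 0.28), HSP101 (-0.79 ± 0.15), HSP90.2 (-0.63 ± 0.06) and BAG6 (-0.39 ± 0.12) were lower, 4 of 7 where 42.7% passed. At 60 min HSP70 (-1.75 ± 0.29, adjusted p = 0.0018), ROF2 (-0.87 ± 0.16), HSP101 (-0.80 ± 0.15) and HSP90.2 (-0.61 ± 0.06) were lower, 4 of 7 where 66.2% passed. Of all genes tested at 60 min, 7007 were lower and 6817 higher. No member rose at any time in the main fit. In fits of the compared groups alone, HSP70 missed the threshold at 30 min (adjusted p = 0.17) and 60 min (0.082) and HSP101 at 15 min (0.061). HSP101 at 15 min was also lost with RLE normalisation, another scaling of libraries (0.057), with replicate number as a block in the fit (0.067) and with DESeq2 (0.079), and BAG6 at 30 min with DESeq2 (0.068). HSP90.1 passed as lower at 30 min with DESeq2 (-0.82, adjusted p = 0.023), in the fit of the compared groups alone (0.031) and without the filter on low counts. ROF2 passed as lower at 30 min with DESeq2 (0.04). MBF1c passed as lower at 15 and 30 min in fits of the compared groups alone (0.0031 and 0.0019). For HSP90.1 and MBF1c at 60 min, the 2 libraries differed (38.2 and 19.8 CPM, 15.4 and 6.81 CPM), and each passed without 1 of them, HSP90.1 at -0.98 without replicate 1 and MBF1c at 0.78 without replicate 2.

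With 2 libraries per time these calls were sensitive to single ones. HSP101 was lost at 10 min without replicate 2 of 0 min or either 10 min library, and at 15 min without replicate 2 of 0 min or of 15 min. HSP70 was lost at 30 min without either 30 min library, and BAG6 without replicate 1 of 0 min or replicate 2 of 30 min. Without replicate 1 of 0 min HSP70 passed at 10 and 15 min and ROF2 at 10 and 30 min, and without its replicate 2 ROF2 passed as higher at 5 min (0.36) and 15 min (0.29). The calls on HSP90.2 from 10 min onward held without any of these libraries.

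**Figure D4:**
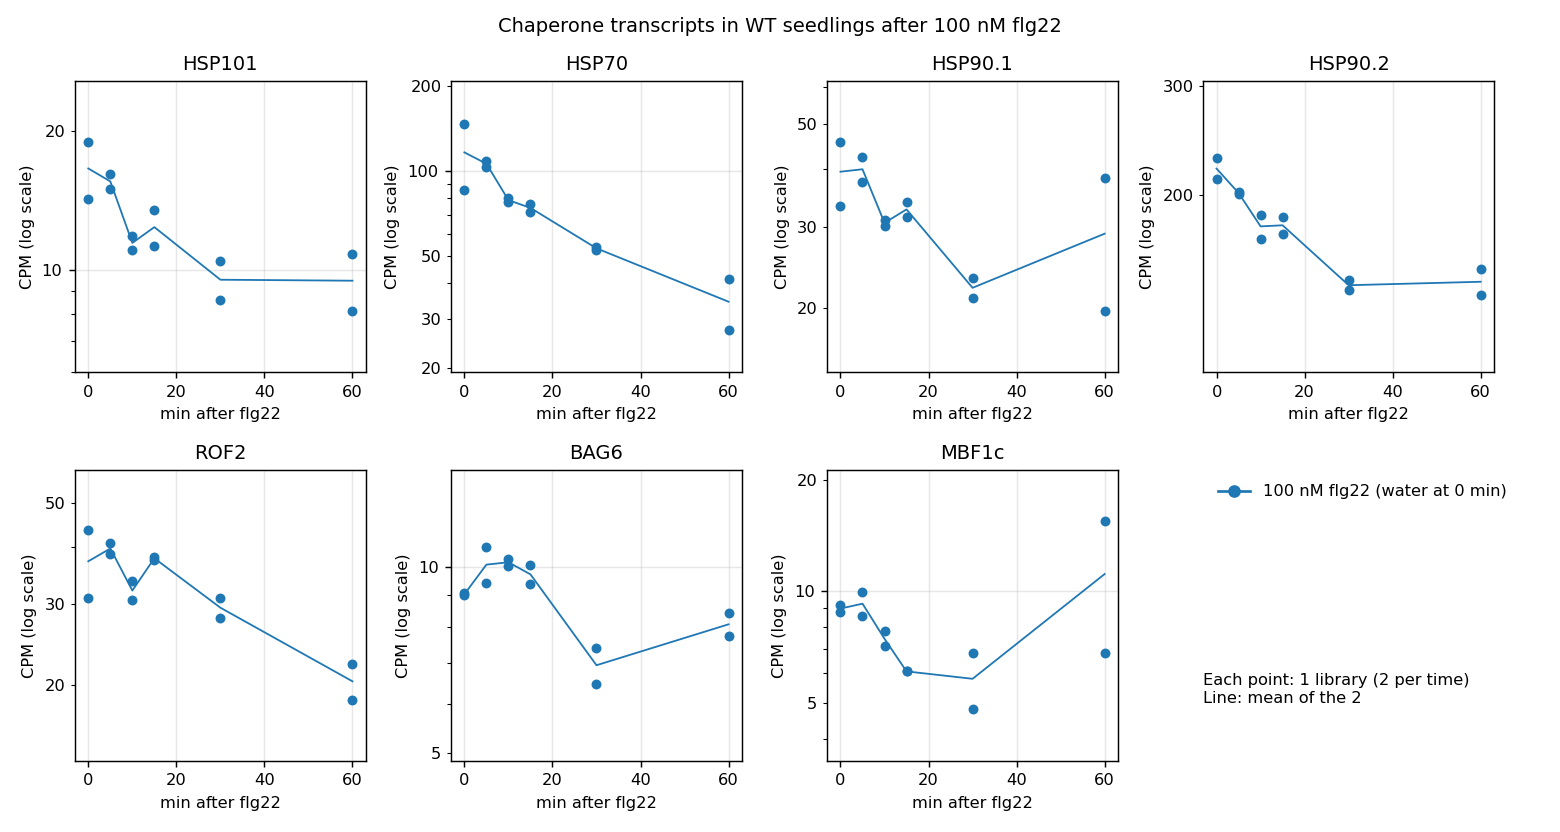
Level of each gene in CPM (logarithmic axis) against minutes after 100 nM flg22, with 1 point per library (2 per time) and a line through the means. HSP70 declines from 85.5 and 147 CPM to 41.4 and 27.4 CPM, and the libraries of MBF1c and HSP90.1 separate at 60 min.

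At 60 min, 7 of 12 small heat shock protein genes were lower and 1 was higher (median -1.32, against -0.03 over all genes), with HSP17.6II at -2.43 ± 0.23 and the exception AT1G59860 at 3.82 ± 0.16. Paralogues had 12 of 20 lower and 4 higher (median -0.36), among them the organellar disaggregases CLPB3 (-0.91 ± 0.06) and CLPB4 (-0.98 ± 0.08). Co-chaperones had 6 of 13 higher and 4 lower (median -0.04), with SGT1A at 2.20 ± 0.08. Heat shock factor genes had 9 of 18 higher and 4 lower (median 0.22), with HSFA4A at 3.76 ± 0.08, and endoplasmic reticulum genes 5 of 16 higher and 6 lower (median -0.11), with BZIP60 at 2.85 ± 0.06.

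In set B2 all groups had 3MBiP and the dose of flg22 was 2 nM, so its values stand beside the time course without a comparison. In WT, all 7 members were lower at 30 min, where 43.2% of genes passed (4474 lower and 4688 higher). HSP70 went from 36.4, 62.0 and 51.8 CPM to 11.0, 8.61 and 11.6 CPM at 30 min and stood at 30.5, 10.3 and 22.6 CPM at 1 h. HSP90.1 went from 18.0, 29.8 and 24.3 CPM to 8.30, 8.05 and 9.33 CPM and stood at 27.8, 13.0 and 20.6 CPM at 1 h. The 30 min libraries of these 2 genes lay below the unstimulated ones, while those of HSP90.1 at 1 h overlapped them. The log2 fold changes at 30 min were -2.25 ± 0.30 for HSP70, -1.47 ± 0.26 for HSP90.1, -1.20 ± 0.15 for HSP101, -1.12 ± 0.17 for MBF1c, -0.89 ± 0.11 for HSP90.2, -0.80 ± 0.12 for ROF2 and -0.55 ± 0.11 for BAG6. At 1 h 6 of 7 were lower, where 60.4% passed, and HSP90.1 (-0.24 ± 0.23) was the exception. MBF1c at 1 h (-0.44 ± 0.15) was lost without replicate 2 of unstimulated WT or replicate 2 or 3 at 1 h, and in the fit of the compared groups alone (adjusted p = 0.11), where HSP70 at 1 h was at the threshold and not called (0.05).

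In the 2 kinase lines, 5 to 7 members were lower with flg22. At 30 min 6 of 7 members were lower in impk36 (38% of genes passed), all but BAG6 (-0.25 ± 0.10, adjusted p = 0.058), and 7 of 7 in impk4 (40.8%). At 1 h 6 of 7 were lower in impk36 (55.8%), all but MBF1c, and 5 of 7 in impk4 (57.5%), all but HSP90.1 and MBF1c. No difference of a response from WT passed the threshold for any member, where 6.59% (impk36) and 3.21% (impk4) of genes passed at 30 min, and 15.1% and 10.5% at 1 h. The widest were 0.62 ± 0.31 for HSP90.1 and 0.57 ± 0.41 for HSP70, in impk4 at 1 h and 30 min. Leaving out 1 library brought a call in 3 of these tests, on ROF2 at 30 min in impk4 (0.67 without replicate 1 of unstimulated WT), and on MBF1c at 1 h without replicate 1 of WT in both lines (0.60 in impk36 and 0.78 in impk4) or without replicate 1 of unstimulated impk4 (0.67). ROF2 in impk4 at 30 min (-0.29 ± 0.12) was lost without any of 4 single libraries, HSP90.1 in impk36 at 1 h without replicate 2, and HSP70 in impk4 at 1 h without replicate 1 of unstimulated impk4. BAG6 in impk36 at 30 min passed without replicate 2 of that time and without the filter on low counts (adjusted p = 0.036). It also passed with the replicate block (0.047) and in the fit of the compared groups alone (0.043).

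Wounding moved single members. BAG6 stood at 13.2, 14.7 and 15.6 CPM in unstimulated WT and at 23.8, 19.7 and 21.5 CPM after wounding. HSP90.2 went from 422, 515 and 490.0 CPM to 297, 306 and 309 CPM. The libraries overlapped for neither gene. BAG6 rose (0.57 ± 0.10) and HSP90.2 (-0.64 ± 0.11) and ROF2 (-0.33 ± 0.12) fell, 3 of 7 where 53.6% of genes passed, while HSP90.1 (0.49 ± 0.22, adjusted p = 0.056) missed the threshold and passed without replicate 2 of unstimulated or of wounded WT. ROF2 was lost without replicate 2 or 3 of unstimulated WT or replicate 2 of wounded WT, and in the fit of the compared groups alone (adjusted p = 0.074). BAG6 rose and HSP90.2 fell in both lines too. In impk36, HSP70, ROF2 and MBF1c also fell (5 of 7, 46.7% of genes), and in impk4 MBF1c fell and HSP90.1 rose (4 of 7, 58.7%). HSP90.1 in impk4 was lost without replicate 2 of its unstimulated or replicate 1 of its wounded libraries, and in the fit of the compared groups alone (adjusted p = 0.078). MBF1c was lost without replicate 3 of the wounded libraries in either line, and in impk4 also without replicate 1 of the unstimulated ones, and HSP101 (-0.36) passed in impk36 without replicate 1 after wounding. None of the 7 responses differed from WT past the threshold in impk36 (5.44% of genes did) or impk4 (8.01%). After wounding 8 of 13 small heat shock protein genes were higher and 2 lower (median 0.78, against 0.01 over all genes), as were 7 and 2 of 19 heat shock factor genes (median 0.42), 1 and 2 of 13 co-chaperones (median -0.04), 5 and 9 of 20 paralogues (median 0.01) and 5 and 8 of 16 endoplasmic reticulum genes (median -0.13).

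UVB lowered 4 of 7 members in WT, where 40.8% of genes passed. MBF1c went from 17.8, 13.3 and 12.2 CPM to 7.03, 8.30 and 9.19 CPM (-0.83 ± 0.15). HSP101 went from 24.3, 16.6 and 16.5 CPM to 12.4, 13.2 and 14.3 CPM (-0.53 ± 0.13). The groups did not overlap for these genes. ROF2 (-0.38 ± 0.13) and BAG6 (-0.29 ± 0.08) were lower too, but 2 members were called without replicate 1 of unstimulated WT, which was the highest of the 6 libraries for all 7 members, and ROF2 and BAG6 were the ones lost. ROF2 was also lost without replicate 2 of unstimulated WT or replicate 1 or 3 after UVB, and BAG6 without replicate 2 after UVB. ROF2 was lost as well with the replicate block (adjusted p = 0.051) and in the fit of the compared groups alone (0.066). HSP70 (-0.90 ± 0.40) and HSP90.1 (-0.60 ± 0.26) missed the threshold and passed without replicate 3 after UVB (-1.50 and -0.85). After UVB 0 of 7 members differed from WT in impk36 (9.73% of genes did, with 4880 at an unadjusted p under 0.05) or in impk4 (0.696%, with 2381), and DESeq2 called 0 as well. Higher and lower after UVB in WT were 9 and 0 of 18 heat shock factor genes (median 0.28, against 0.00 over all genes), 4 and 0 of 13 co-chaperones (median 0.09), 1 and 1 of 11 small heat shock protein genes (median 0.03), 2 and 6 of 20 paralogues (median -0.16) and 2 and 5 of 15 endoplasmic reticulum genes (median -0.15).

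Abscisic acid raised HSP70 and MBF1c in all 3 lines. HSP70 stood at 31.1, 17.3 and 26.3 CPM in unstimulated WT and at 104, 107 and 98.9 CPM with abscisic acid (2.04 ± 0.50, adjusted p = 0.0022). MBF1c went from 9.66, 7.73 and 8.53 CPM to 32.3, 29.1 and 23.4 CPM (1.71 ± 0.36). The groups lay apart for both. The other 5 members changed by 0.10 to 0.41 without passing, so 2 of 7 were called in WT, where 30.4% of genes passed, in impk36 (2.11 ± 0.52 and 1.96 ± 0.37, 29.1%) and in impk4 (2.23 ± 0.52 and 1.87 ± 0.36, 29.3%). In the fit of the compared groups alone, HSP101 passed in WT too (0.41, adjusted p = 0.0035). HSP101, HSP90.1, HSP90.2 and ROF2 passed in such a fit in impk4. The differences of these responses from WT ran from -0.18 to 0.25 and 0 of 7 passed in either line, where 0% of genes passed in both (1035 in impk36 and 1065 in impk4 at an unadjusted p under 0.05). With abscisic acid 9 of 18 heat shock factor genes were higher and 0 lower (median 0.29, against -0.01 over all genes), as were 2 and 0 of 11 small heat shock protein genes (median 0.73), 3 and 0 of 13 co-chaperones (median 0.10), 4 and 0 of 20 paralogues (median 0.08) and 4 and 2 of 16 endoplasmic reticulum genes (median -0.01).

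Methyl jasmonate raised BAG6. It stood at 15.1, 14.1 and 16.2 CPM in unstimulated WT and at 30.7, 29.8 and 27.4 CPM with methyl jasmonate (0.95 ± 0.13, adjusted p = 4e-07), with all treated libraries above all others. It was the 1 member called in WT, where 32.2% of genes passed, and it rose in impk36 (0.79 ± 0.13) and impk4 (0.82 ± 0.13). HSP70 was at 1.06 ± 0.51 in WT and passed in impk36 (1.57 ± 0.52) and impk4 (1.52 ± 0.52), so 2 of 7 were called in each (31.5% and 32.6% of genes). The HSP70 call was lost without replicate 1 or 3 of the unstimulated group in either line, or without replicate 1 (impk36) or 2 (impk4) of the treated group. HSP70 in WT stood at 43.1 to 63.7 CPM with methyl jasmonate, inside its range with DMSO and no stimulus (33.5 to 69.8 CPM). In WT the libraries overlapped for HSP90.1 and ROF2 alone, and the share of all genes without overlap was not computed. In the fit of the compared groups alone, HSP101 (0.31, adjusted p = 0.037), HSP70 (1.05, 0.037) and MBF1c (0.65, 0.0039) passed in WT too. HSP101, HSP90.2 and MBF1c passed in such fits in both lines, and HSP90.1 in impk36. No difference from the WT response passed among the members, where 0.0141% of genes did in impk36 and 0.00471% in impk4 (759 and 984 genes at an unadjusted p under 0.05).

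3MBiP and the lines were also compared without a stimulus. ROF2 stood at 18.8, 23.3 and 21.7 CPM with DMSO and at 13.1, 11.1 and 10.5 CPM with 3MBiP in WT, which did not overlap. It was the 1 member that passed (-0.89 ± 0.26, adjusted p = 0.029), where 8.65% of genes did. The call was lost without replicate 2 or 3 of either group (adjusted p from 0.083 to 0.12). All 7 estimates were negative, down to -1.10 ± 0.50 for HSP90.1, and the libraries overlapped for BAG6 alone. The share of all genes without overlap was not computed. In the fit of the compared groups alone, HSP101 (-0.71, adjusted p = 0.00034), HSP90.2 (-0.46, 0.0063) and MBF1c (-0.78, 0.04) passed too. Unstimulated impk36 and impk4 in B1 had 0 of 7 members past the threshold, where 3.56% and 0.0801% of genes passed (3184 and 1706 at an unadjusted p under 0.05). In B2, HSP101 (0.36 ± 0.13) and HSP90.2 (0.35 ± 0.11) were higher in impk36 (31.4% of genes passed) and ROF2 was lower in impk4 (-0.37 ± 0.11, 16.6%). HSP101 and HSP90.2 were both lost without replicate 1 of WT, and HSP101 also without replicate 3 of WT or replicate 1 or 2 of impk36, while MBF1c (0.41) passed without replicate 2 of WT. ROF2 was lost without replicate 2 or 3 of WT or replicate 2 of impk4, and in the fit of the compared groups alone (adjusted p = 0.2).

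In adult impk4 shoots, the members differed between the mock times by wide margins. HSP70 stood at 79.1, 76.7 and 68.3 CPM at 0 h, at 5.21, 6.35 and 5.20 CPM after 3 h, at 2.33, 2.25 and 2.78 CPM after 12 h and at 18.8, 20.7 and 23.0 CPM after 24 h. BAG6 moved the other way, from 5.24, 3.48 and 4.29 CPM to 20.1, 19.5 and 19.5 CPM after 3 h. HSP90.2 went from 92.1, 137 and 119 CPM to 248, 305 and 337 CPM after 6 h. None of these sprayed groups overlapped the 0 h group. The spray and the elapsed time cannot be told apart, since the 0 h plants were untreated.

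Over the 5 mock groups all 7 members passed an F test, as did 84.5% of genes. Against 0 h, HSP70 was at -3.74 ± 0.26, -3.47 ± 0.25, -4.93 ± 0.28 and -1.84 ± 0.23 at 3, 6, 12 and 24 h, and HSP90.1 at -2.72 ± 0.23, -1.73 ± 0.21, -2.94 ± 0.23 and -1.89 ± 0.22. MBF1c was lowest at 12 h (-2.49 ± 0.19), as was ROF2 (-1.74 ± 0.20). BAG6 (2.18 ± 0.18 at 3 h) and HSP90.2 (1.35 ± 0.13 at 6 h) were higher at all 4 times. The counts of members higher and lower were 2 and 4 at 3 h (69.1% of genes passed), 3 and 4 at 6 h (71%), 2 and 4 at 12 h (71.5%) and 2 and 3 at 24 h (62.6%). ROF2 was lost at 3, 6 and 24 h without replicate 2 of 0 h. It was also lost at 3 h without replicate 1 of mock, at 6 h without replicate 2 of mock, and at 24 h without replicate 3 of 0 h or replicate 1 or 2 of mock, without the filter on low counts (adjusted p = 0.067) and in the fit of the compared groups alone (0.13). HSP101, higher at 6 h (0.48 ± 0.15), was lost without replicate 3 of that time, and MBF1c passed at 24 h without replicate 3.

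3MBiP was compared with mock at each time. HSP70 stood at 6.71, 5.98 and 7.55 CPM with mock and 18.7, 8.95 and 9.80 CPM with 3MBiP after 6 h. It stood at 2.33, 2.25 and 2.78 CPM against 9.18, 7.96 and 6.02 CPM after 12 h, and at 18.8, 20.7 and 23.0 CPM against 33.0, 31.6 and 37.9 CPM after 24 h. HSP70 with 3MBiP lay above mock in every library at these times. At 3 h 0 of 7 passed, where 0.279% of genes did (1760 at an unadjusted p under 0.05), and DESeq2 also called 0. At 6 h HSP70 (0.89 ± 0.25) was higher and HSP90.2 (-0.55 ± 0.12) lower, 2 of 7 where 6.08% passed. At 12 h HSP70 (1.64 ± 0.29, adjusted p = 0.00052) and HSP90.1 (0.81 ± 0.24) were higher and BAG6 (-0.51 ± 0.17) was lower, 3 of 7 where 14.2% passed. At 24 h HSP70 (0.72 ± 0.23) and HSP90.1 (0.63 ± 0.22) were higher, 2 of 7 where 25.2% passed.

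The HSP70 call at 12 h held without each single library, and the other calls at 6, 12 and 24 h did not. At 6 h, 1 member was called without replicate 1 of mock and 0 without replicate 2 or 3 of mock or replicate 1 of 3MBiP. HSP70 was at 0.47 without that last library. It was also lost without the filter on low counts (adjusted p = 0.06), with the replicate block (0.055) and in the fit of the compared groups alone (0.13). At 12 h, 1 was called without replicate 1 or 3 of mock or replicate 1 of 3MBiP, HSP90.1 was also lost without replicate 2 of mock, and BAG6 without replicate 3 of 3MBiP. BAG6 at 12 h was lost too with RLE normalisation (adjusted p = 0.055), without the filter (0.053), with the replicate block (0.064) and in the fit of the compared groups alone (0.073). At 24 h, 0 were called without replicate 1 or 2 of mock or replicate 3 of 3MBiP, and 1 without replicate 1 or 2 of 3MBiP, while ROF2 (0.66) passed without replicate 3 of mock. HSP90.1 at 24 h was also lost without the filter (adjusted p = 0.061) and with the replicate block (0.051). At 24 h 5 of 16 endoplasmic reticulum genes and 5 of 17 heat shock factor genes were higher and 0 lower (medians 0.34 and 0.14, against -0.01 over all genes), as were 3 and 0 of 7 small heat shock protein genes (median 0.19), 2 and 0 of 13 co-chaperones (median 0.06) and 2 and 1 of 20 paralogues (median -0.12). At 12 h the higher and lower counts of the 5 lists in this order were 0 and 1, 1 and 0, 2 and 0, 1 and 1, and 3 and 1. At 6 h they were 0 and 2, 1 and 0, 0 and 0, 0 and 2, and 0 and 6, and at 3 h no gene of the lists passed.

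**Figure D5:**
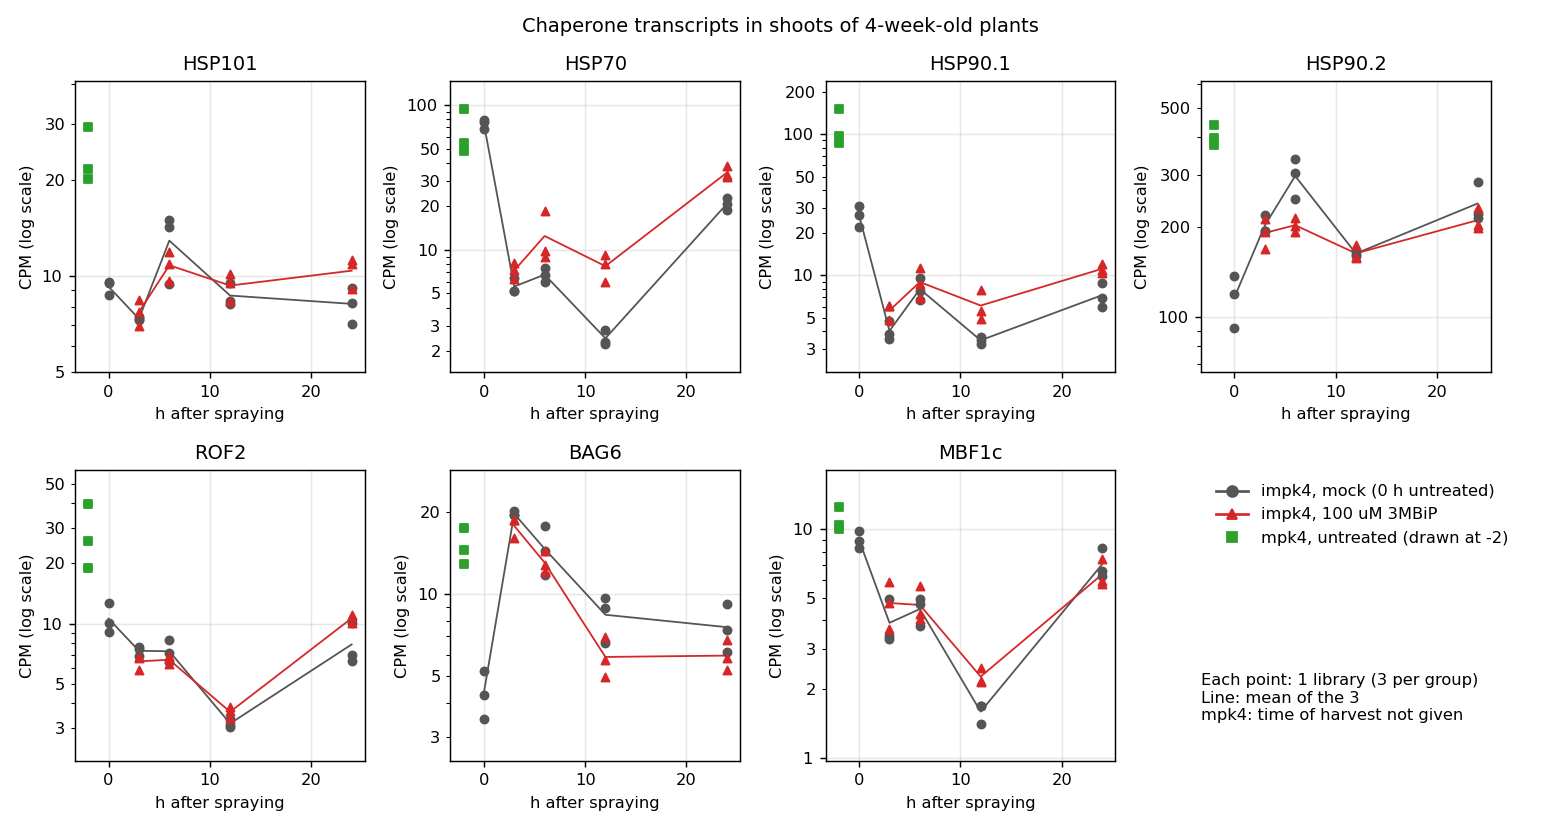
Level of each gene in CPM (logarithmic axis) in shoots of 4-week-old plants against hours after spraying, for impk4 with mock (grey) and 3MBiP (red) and for untreated mpk4 (green, set to the left because its time is not given). HSP70 and HSP90.1 fall after 0 h and lie higher with 3MBiP at 12 and 24 h, and BAG6 is highest at 3 h.

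Untreated mpk4 shoots held more of 5 members than untreated impk4 shoots, where 78.2% of genes passed and the median gene stood at 0.19 on the log2 scale. HSP90.1 stood at 86.7, 151 and 97.1 CPM against 22.0, 31.0 and 26.7 CPM (2.07 ± 0.20, adjusted p = 1.1e-09). BAG6 stood at 12.9, 17.5 and 14.5 CPM against 5.24, 3.48 and 4.29 CPM (1.79 ± 0.18). HSP90.2 (1.80 ± 0.13), ROF2 (1.41 ± 0.18) and HSP101 (1.35 ± 0.15) were higher as well, and the libraries of these 5 genes did not overlap between the groups. MBF1c (0.29 ± 0.16) and HSP70 (-0.19 ± 0.21) did not pass, and HSP70 was lower without replicate 2 of mpk4 (-0.58, adjusted p = 0.012).

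These values depend on the reference, since the mock groups themselves moved. Against the mock groups from 3 to 24 h, HSP70 was 1.65 to 4.73 higher in mpk4 on the log2 scale, while BAG6 was at -0.40 ± 0.16 against mock 3 h and 0.03 ± 0.16 against mock 6 h. The estimates of HSP90.1, HSP101, HSP90.2 and ROF2 were positive against all 5 reference groups, the lowest being 0.45 ± 0.12 for HSP90.2 against mock 6 h. All 16 endoplasmic reticulum genes were higher in mpk4 than in untreated impk4 (median 2.34), with the protein disulfide isomerase PDIL1-1 at 2.76 ± 0.11 and CRT3 at 2.58 ± 0.12. Co-chaperones had 12 of 13 higher and 0 lower (median 0.62), with FES1A at 1.99 ± 0.11, and heat shock factor genes 11 of 17 higher and 3 lower (median 1.07), with HSFA1D at 1.73 ± 0.08. Paralogues had 10 of 20 higher and 7 lower (median 0.29), with CLPB3 at -3.06 ± 0.10 and BAG2 at -3.47 ± 0.15, and small heat shock protein genes 4 of 7 higher and 1 lower (median 1.45). That 1 was HSP18.2 (-2.15 ± 0.36).

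The members also varied together between replicates. Across the 141 libraries, deviations of log2 CPM from the group mean correlated between HSP70 and HSP90.1 at r = 0.92, between HSP101 and HSP90.1 at 0.88 and between HSP90.1 and ROF2 at 0.83. BAG6 was the least tied, with r from 0.34 (HSP90.2) to 0.50 (HSP101). These are descriptions, and points of 1 library share its preparation and depth. Over the 49 group means, centred within sets, HSP70 and MBF1c had the highest r of any pair of members (0.88). Without the 4 groups of B4, the r of BAG6 with HSP101 fell from 0.77 to 0.37 and that with HSP90.1 from 0.43 to -0.00.

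The genes most like each member over the 49 group means included further chaperone genes, by a Pearson r whose points share libraries and sets. Among 17533 genes, HOP3 was in the top 3 of HSP70 (r = 0.88), HSP90.1 (0.93), ROF2 (0.91) and MBF1c (0.86). HSP90.2 was most like its neighbour HSP90.3 (0.91), a gene with which it shares sequence, followed by TPR10 (0.86) and ROF1 (0.86). HSP101 was most like the small heat shock protein gene AT1G07400 (0.96), followed by AT5G35320 (0.96) and FES1A (0.95). BAG6 was most like HSP70-5 (0.82), but with B4 left out none of its top 3 recurred and AT5G62360 led (0.86). For each of the other members, at least 2 of the top 3 recurred without B4.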

How the data were processed

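The authors deposited raw read counts per locus, 1 library per file, made with HTSeq after TopHat alignment to TAIR10 per the submitters' processing notes. Versions and settings are not given in the sources used here. Rows naming no gene were left out of library sizes (reads in no feature 0.829 to 2.30%, ambiguous 0.908 to 4.09%). Each of the 6 sets was fitted alone in edgeR 4.0.16 (R 4.3.3), with 1 mean per group, filterByExpr, TMM normalisation and robust two-sided quasi-likelihood F tests. P values were Benjamini-Hochberg adjusted over all genes of each of the 55 comparisons with a background share (threshold 0.05), and standard errors are the fold change over the square root of F. CPM use TMM library sizes and were not compared between sets by a test. Code was tested on simulated data.

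The labels do not say that replicates came from separate cultures or plants, so p values measure the spread between these samples, which may be technical. Among pairs of groups compared directly, same-numbered libraries deviated together in all 3 pairs (r above 0.1) after UVB in impk4 and WT alone (lowest r 0.179). Other comparisons had only positive r, not all above 0.1, such as pep3 in impk36 (0.0504 to 0.339). Some had negative r as well, such as H2O2 in WT (-0.0425 to 0.0369). Whether replicate numbers mark batches was not tested. The number was not used as a block in the main fits. Pairs of lines after pep3 were not part of this check. Members, lists and tests were chosen with earlier results of these data known. From each list (84 genes in 5 lists) the 3 genes with the smallest adjusted p could be named, and for likeness the 3 highest Pearson correlations of log2(CPM + 1) group means. Alternatives were RLE normalisation, no filter, DESeq2 1.42.0, a replicate block, fits of the compared groups alone and leaving out single libraries. Symbols, coordinates and sequences come from RefSeq's TAIR10.1, which held 31912 of 32678 and 37051 of 37336 locus identifiers. No deposited column was left unused.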

Additional observations from a re-analysis of the deposited data

Results flagged for a closer look

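The response of MBF1c to pep3 differed between impk36 and WT by the test of the difference itself (-1.66 on the log2 scale, adjusted p = 0.032 in edgeR). In WT the gene rose in 3 of 3 libraries to 23.7, 33.1 and 65.3 CPM, and in impk36 it stood at 7.89 to 10.9 CPM after pep3 against 5.70, 8.01 and 5.62 CPM in the unstimulated libraries. The call was lost without any of 5 single libraries, and the difference was -1.13 without replicate 3 of WT after pep3. It was also lost in the fit of the compared groups alone (-1.66, adjusted p = 0.078), and in such a fit MBF1c passed as higher after pep3 in impk36 itself (0.59, adjusted p = 0.0076).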

How the results depend on the processing

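The counts are of members past the threshold. All 7 members after H2O2 and after 30 min of 2 nM flg22 in WT held under every alternative run, single libraries left out included. The following counts moved by over 1.5 times, and the cause was not tested. Without a filter on low counts, 5 members passed at 10 and at 15 min of 100 nM flg22 (2 each), 7 at 30 min (4), 1 with 3MBiP at 6 h (2) and 1 at 24 h (2). With RLE normalisation 1 passed at 15 min (2). DESeq2 called 1 at 15 min (2), 2 for pep3 in impk36 (1), 3 for its difference from WT (1), and after H2O2 6 in impk36 (3) and 3 in impk4 (1). In fits of the compared groups alone, 4 passed with 3MBiP against DMSO (1), 4 with methyl jasmonate in WT (1), 6 in impk36 (2) and 5 in impk4 (2), 6 with abscisic acid in impk4 (2), 2 with pep3 in WT (5), 2 in impk36 (1), 0 for its difference from WT (1), 1 in unstimulated impk36 of B1 (0), 0 in unstimulated impk4 of B2 (1), 6 in impk36 (3) and 4 in impk4 (1) after H2O2, and 1 with 3MBiP at 6 h (2).

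With replicate number as a block, 1 passed at 15 min of flg22 (2), 2 for the pep3 difference of impk36 from WT (1), 5 in impk36 (3) and 3 in impk4 (1) after H2O2, 1 with 3MBiP at 6 h (2) and 1 at 24 h (2). The block moved no other count of members by over 1.5 times, and 0 passed for impk4 after UVB, the comparison with r above 0.1 in all pairs.

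Leaving out 1 library gave 0 to 1 at 5 min, 1 to 4 at 10 min, 1 to 3 at 15 min and 2 to 4 at 30 min of 100 nM flg22, 0 to 1 with 3MBiP against DMSO, 3 to 6 with pep3 in WT, 1 to 2 in impk36 and 0 to 6 for its difference from WT. It gave 2 to 5 with UVB, 1 to 2 with methyl jasmonate in impk36 and in impk4, 0 to 3 and 0 to 1 in unstimulated impk36 and impk4 of B2, 0 to 1 for the flg22 differences in impk4 at 30 min and in both lines at 1 h, 0 to 1 in impk4 after H2O2, and 0 to 2, 1 to 3 and 0 to 3 with 3MBiP at 6, 12 and 24 h. Where this left 1 library in a group, it was assumed to vary like the others.

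For mpk4, HSP70 was at -0.19 against untreated impk4 and at 3.55, 3.27, 4.73 and 1.65 against mock 3, 6, 12 and 24 h, and BAG6 at 1.79 and, against mock 3 h, at -0.40.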
